A study of Rattus norvegicus with 48 samples.

Results

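The nuclear receptor genes Ppara and Ppard and the fat oxidation genes Cpt1a, Ehhadh, Pdk4, Acadm and Acaa2 were followed in the liver of rats given the nitramine explosive RDX. They were chosen by name, as the probe sets (groups of short probes for 1 transcript) to which the platform annotation gives 1 of these symbols alone. The 7 genes had 11 such probe sets, out of 14217 genes with a symbol on the array, and the brightest over the liver arrays represented each gene. Male Sprague-Dawley rats, housed in pairs with free access to food, took RDX once by mouth in a gel capsule, at 18 or 3 mg/kg, doses meant to stay below seizure. Liver and brain cortex were taken at 0, 4, 24 and 48 h and hybridised to Affymetrix rat expression arrays. Liver gave 24 arrays, 3 for each of the 8 combinations of dose and time, and cortex another 24. All groups received RDX according to their labels, including those at 0 h. No vehicle arm is labelled, so each later group was set against the 0 h group of its own dose, and an effect of RDX cannot be told apart from one of dosing, of feeding after it or of the time of day, which the labels do not give. The labels also do not say that each array stands for an animal of its own, so the p-values measure only the spread between arrays.

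Ppara and Ppard encode peroxisome proliferator-activated receptors (PPARs), nuclear receptors that bind fatty acids and activate transcription as heterodimers with a retinoid X receptor. In liver, PPAR alpha is the form known for switching on fat oxidation and ketone body production in fasting, while PPAR delta is made in most tissues. Cpt1a is the liver form of the enzyme that commits long-chain fatty acids to entry into mitochondria. Acadm (medium-chain acyl-CoA dehydrogenase) and Acaa2 (a 3-ketoacyl-CoA thiolase) catalyse the opening and the closing step of the mitochondrial cycle of beta-oxidation. Ehhadh is the bifunctional enzyme of peroxisomal beta-oxidation. Pdk4, pyruvate dehydrogenase kinase 4, holds back the oxidation of glucose.

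Promoter sequences were available for 5 of the 7 genes (RefSeq, build GRCr8), each from 250 bases before to 50 after the start that RefSeq's promoter table uses. For Cpt1a and Ppara that start lies 2279 and 346 bases inside the outer end of the annotated gene, and for the other 3 it is that end. Those of 3 genes are shown because Cpt1a, the transport enzyme, and Acadm and Ehhadh, from the mitochondrial and the peroxisomal cycle, followed different patterns over the liver arrays. The windows are chr1:209995910-209996209 on the plus strand (Cpt1a), chr2:245542815-245543114 on the minus strand (Acadm) and chr11:92746159-92746458 on the plus strand (Ehhadh). Capitals mark the GC box GGGCGG and the CCAAT box, in either orientation.
Cpt1a: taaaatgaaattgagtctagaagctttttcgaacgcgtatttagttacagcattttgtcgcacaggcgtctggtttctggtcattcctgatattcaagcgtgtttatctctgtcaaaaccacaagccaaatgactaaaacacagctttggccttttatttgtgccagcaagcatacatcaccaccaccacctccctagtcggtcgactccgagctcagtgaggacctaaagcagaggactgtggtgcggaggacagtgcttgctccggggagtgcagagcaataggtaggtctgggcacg
Acadm: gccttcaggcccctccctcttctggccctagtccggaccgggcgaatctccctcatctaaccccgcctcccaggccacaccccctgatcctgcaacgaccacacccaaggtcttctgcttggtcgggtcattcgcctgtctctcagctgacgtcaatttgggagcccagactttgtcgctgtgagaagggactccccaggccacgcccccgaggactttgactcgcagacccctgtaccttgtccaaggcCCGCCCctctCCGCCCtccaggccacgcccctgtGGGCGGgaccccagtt
Ehhadh: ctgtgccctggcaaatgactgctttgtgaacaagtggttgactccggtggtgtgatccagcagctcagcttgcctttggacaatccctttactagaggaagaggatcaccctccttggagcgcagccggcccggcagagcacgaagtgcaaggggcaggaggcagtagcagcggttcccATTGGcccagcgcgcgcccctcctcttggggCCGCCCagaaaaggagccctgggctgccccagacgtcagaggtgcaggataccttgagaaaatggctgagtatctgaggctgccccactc
The GC box occurs 3 times in the Acadm window, 2 times each in those of Pdk4 and Ppara, 1 time in that of Ehhadh and not in that of Cpt1a, and it is found in 33.1% of all 33469 promoters in the table. The CCAAT box occurs 1 time each in the Ehhadh and Pdk4 windows and in 37.5% of all promoters. The hexamer AGGTCA that PPARs bind in pairs (16.2% of all promoters), its direct repeat with any 1 base between the copies (0.0538%), the E-box CACGTG (6.42%) and TATAAA (14.2%) were searched on both strands, and their letters are in none of the 5 windows. The share of G and C was 48.3% in the Cpt1a window, 65% in that of Acadm and 60.7% in that of Ehhadh.

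Of the 24 liver arrays 2 stood apart. Replicate 2 of the 3 mg/kg 0 h group and replicate 1 of the 18 mg/kg 4 h group had compressed values, with an SD over all probe sets of 1.492 and 1.383 on the log2 scale, against at least 1.824 in every other liver array. The mean of the hepatocyte transcripts measured (6 of 7 listed) was 12.8 and 11 in these arrays and 13.5 to 13.8 in the other liver arrays. Acadm, Acaa2 and Ehhadh had their lowest values of all 24 liver arrays in these 2. Fits without them are called fits on 22 arrays, and stand beside the members' liver differences that involve either array, except where a second probe set is named. No 2 arrays held identical values.

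Ppard fell in liver at 4 h after the low dose and was the only member that passed the test in any of the 6 comparisons with 0 h on all 24 arrays. After 3 mg/kg its log2 level was 7.88, 7.90 and 7.97 at 4 h, against 9.92, 9.59 and 9.14 at 0 h. The 4 h arrays lay close together and all below the 0 h arrays. The difference was log2 -1.63 ± 0.23 (SE, as for every log2 difference given with ±), which is 3.1-fold lower (limma, adjusted p = 0.0074). In this comparison 0.0226% of all probe sets passed, 7 of 31042, and 1 of 7 members. Less RNA per cell and fewer cells that make it cannot be told apart in a tissue extract. The fit on 22 arrays gave log2 -1.61 (adjusted p = 0.0085). The call was lost without replicate 1 of the 0 h group (adjusted p = 0.079), without replicate 1 (0.071) or replicate 2 (0.08) of the 4 h group, with both 0 h groups pooled (0.12, at log2 -1.24), and with only the 6 arrays compared (0.46). It rests on 1 probe set, since the second one for Ppard was dim, at 4.89 on average at 4 h and 5.11 at 0 h, and had a log2 difference of -0.23 (adjusted p = 0.6).

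The high dose gave a lower Ppard level at 4 h as well, without passing. The arrays read 8.26, 7.40 and 7.73 at 4 h after 18 mg/kg, against 8.70, 9.03 and 8.59 at 0 h, and again did not overlap. The difference was log2 -0.98 ± 0.23 (adjusted p = 0.28). Here 0 of 7 members passed limma's test, beside 0.0258% of all probe sets, and 4 had an unadjusted p under 0.05, as did 11.4% of all probe sets. On 22 arrays it was log2 -1.21 (adjusted p = 0.054), and against both 0 h groups pooled it was log2 -1.36 (adjusted p = 0.022).

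At 24 and 48 h the level stood nearer to that of 0 h than at 4 h. After 3 mg/kg Ppard read 9.10, 8.99 and 9.00 at 24 h and 8.72, 8.97 and 8.80 at 48 h, still below every 0 h array of that arm. Neither time passed against 0 h, with log2 -0.52 ± 0.23 at 24 h (adjusted p = 0.22) and -0.72 ± 0.23 at 48 h (adjusted p = 0.053), or log2 -0.50 and -0.70 on 22 arrays (adjusted p = 0.3 and 0.069). After 18 mg/kg it read 8.38, 8.61 and 7.92 at 24 h and 8.96, 9.22 and 9.37 at 48 h, with log2 -0.47 and 0.41 against 0 h (adjusted p = 1 for both). The 24 h arrays were also set against the 4 h arrays, a test added once the values had been seen. This gave log2 1.11 ± 0.23 after 3 mg/kg (adjusted p = 0.15, and 0.036 on 22 arrays, where the SE was 0.199) and log2 0.51 ± 0.23 after 18 mg/kg (adjusted p = 0.6, or log2 0.74 and 0.7 on 22 arrays). None of the 7 members passed limma's test on 24 arrays in these 2 comparisons, in which 0.00966% and 0.00322% of all probe sets did, and 1 and 2 members had an unadjusted p under 0.05, beside 3.75% and 7.68% of all probe sets.

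Over the 4 times together Ppard passed a test in both arms, but not under every setting. A moderated F test over the 3 changes from 0 h gave adjusted p = 0.028 after 3 mg/kg and 0.036 after 18 mg/kg, and on 22 arrays 0.021 and 0.0072. Ppard was 1 of 7 members called in each arm, beside 0.0258% of all probe sets after 3 mg/kg and 0.116% after 18 mg/kg. Quantile normalisation ended the 3 mg/kg call, leaving 0 of 7 members, and trend and robust moderation that of 18 mg/kg, again leaving 0. Either call depended on single arrays: with each array of the arm left out in turn, the 3 mg/kg test passed in 3 of 12 fits (adjusted p from 0.0018 to 0.13) and the 18 mg/kg test in 3 of 12 (0.009 to 0.23). Ordered by mean, the groups ran from 9.55 (3 mg/kg, 0 h) through 9.18 (18 mg/kg, 48 h), 9.03 (3 mg/kg, 24 h), 8.83 (3 mg/kg, 48 h), 8.77 (18 mg/kg, 0 h), 8.30 (18 mg/kg, 24 h) and 7.92 (3 mg/kg, 4 h) to 7.80 (18 mg/kg, 4 h). The gap between neighbours exceeded the larger of their SDs in 3 of 7 cases, between 3 mg/kg at 24 h and at 48 h, between 18 mg/kg at 0 h and at 24 h, and between 18 mg/kg at 24 h and 3 mg/kg at 4 h. The 2 groups at 4 h, lowest of the 8, did not differ from each other by that measure. The plot of Ppard by tissue and time shows the low 4 h arrays in liver.

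**Figure D1:**
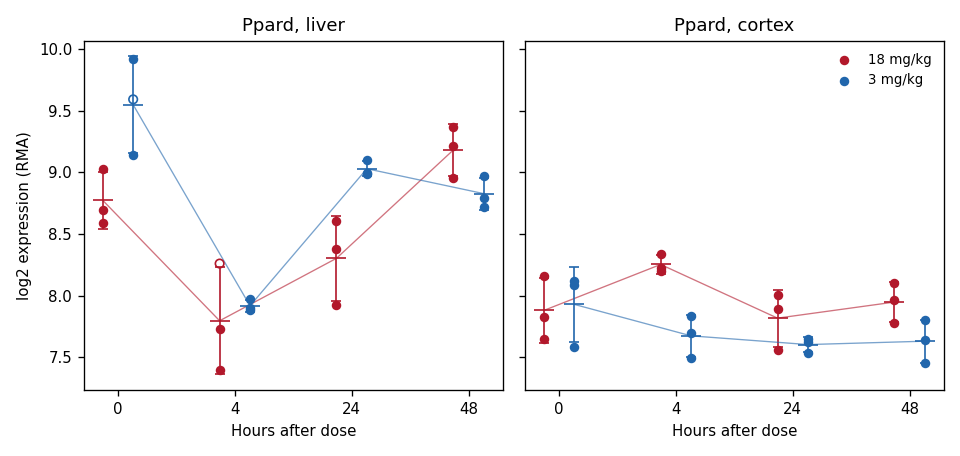
Ppard, log2 expression by hours after dose in liver (left) and cortex (right), for 18 mg/kg (red) and 3 mg/kg (blue); points are arrays, open circles the 2 compressed liver arrays, and bars the group mean ± SD (n = 3). In liver the 4 h arrays, at 7.40 to 8.26, lie below all 0 h arrays, at 8.59 to 9.92, while the cortex arrays stay between 7.45 and 8.34.

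Ppara could not be followed with this array. Its probe set was dim in liver, at 4.26 to 5.37 over the 24 arrays, close to the 4.27 to 4.59 of the same probe set in cortex. Its highest group was 18 mg/kg at 4 h, with 5.37, 4.87 and 5.21, against 4.60, 4.55 and 4.49 at 0 h. These arrays did not overlap, but the difference of log2 0.60 ± 0.23 did not pass (adjusted p = 0.44), and 5.37 was the compressed array. On 22 arrays it was log2 0.50 (adjusted p = 0.91). None of the 7 gaps between neighbouring groups exceeded the larger SD. 

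Cpt1a was high at 4 h, when Ppard was low, and did not pass on all 24 arrays as deposited. After 18 mg/kg it read 11.20, 12.63 and 12.70 at 4 h, against 11.68, 10.97 and 11.09 at 0 h. The low value at 4 h was the compressed array, and the other 2 lay above all 0 h arrays. Over 24 arrays the difference was log2 0.93 ± 0.36 (adjusted p = 0.44), and over 22 arrays log2 1.42 ± 0.24 (adjusted p = 0.019), beside 0.0451% of all probe sets called on 22 arrays. With the compressed 4 h array alone left out, Cpt1a had the same log2 1.42 and did not pass (adjusted p = 0.36). Cpt1a did pass on all 24 after quantile normalisation (log2 1.375, adjusted p = 0.041). It also passed with array weights, which count noisy arrays for less (log2 1.12, adjusted p = 0.0031, where 1.75% of all probe sets passed). The F test over the 4 times of the 18 mg/kg arm had adjusted p = 0.94 on 24 arrays and 0.012 on 22, where 2 of 7 members passed beside 0.238% of probe sets. With the compressed 4 h array alone left out, Cpt1a did not pass this F test. The level was still 12.44, 11.63 and 12.06 at 24 h after 18 mg/kg (log2 0.79 against 0 h, adjusted p = 1, and 0.42 on 22 arrays), and 11.27, 11.61 and 11.00 at 48 h.

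After 3 mg/kg Cpt1a read 11.96, 11.89 and 11.64 at 4 h, against 11.22, 9.89 and 11.36 at 0 h, where 9.89 was the compressed array. No arrays overlapped, and the difference was log2 1.01 ± 0.36 (adjusted p = 0.29), or log2 0.54 (adjusted p = 0.47) on 22 arrays. At 24 and 48 h the arrays lay between 11.05 and 11.50, with log2 0.37 and 0.49 against 0 h, or log2 -0.09 and 0.03 on 22 arrays (adjusted p = 0.9 and 0.96). The second Cpt1a probe set was dimmer, and its direction differed from the first in this arm. It averaged 5.54 at 48 h after 3 mg/kg, against 6.44 at 0 h, a difference of log2 -0.90 ± 0.28 (adjusted p = 0.045). At 4 h after 18 mg/kg it went the same way as the first, with 6.84 at 4 h and 5.86 at 0 h (log2 0.98 ± 0.28, adjusted p = 0.39).

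**Figure D2:**
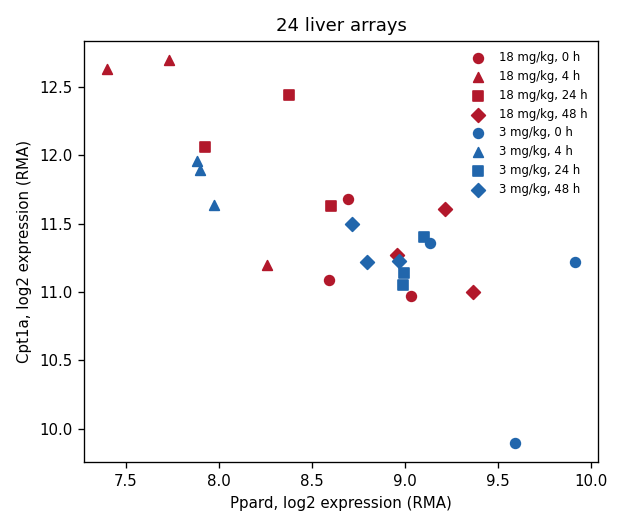
Cpt1a against Ppard, log2 expression on both axes, 1 point for each of the 24 liver arrays, with colour for the dose (red 18, blue 3 mg/kg) and shape for the time. Apart from the compressed array at a Cpt1a level of 11.20, the 4 h arrays (triangles) sit at upper left, with Ppard at 7.40 to 7.97 and Cpt1a at 11.64 to 12.70.

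The 2 mitochondrial enzymes of the cycle, Acadm and Acaa2, did not pass in any comparison on 24 arrays. Acadm read 12.62, 12.59 and 12.69 at 48 h after 3 mg/kg, against 11.82, 11.18 and 12.30 at 0 h. The groups did not overlap, yet the spread at 0 h was wide, and the difference was log2 0.86 ± 0.48 (adjusted p = 0.21). Acaa2 read 12.53, 12.25 and 12.42 at 48 h, against 11.13, 9.42 and 12.04 at 0 h, with log2 1.53 ± 0.49 (adjusted p = 0.051). Its 24 h arrays, 12.22, 12.54 and 12.21, and its 4 h arrays, 12.07, 12.07 and 12.08, were above the 0 h arrays too (log2 1.46 and 1.21, adjusted p = 0.13 and 0.31, or log2 0.74 and 0.49 on 22 arrays, with 0.15 and 0.47). On 22 arrays Acaa2 had log2 0.81 ± 0.22 at 48 h (adjusted p = 0.044) and Acadm had log2 0.57 ± 0.17 (adjusted p = 0.052). With the compressed 0 h array alone left out, Acaa2 had the same difference and did not pass (adjusted p = 0.39). Against both 0 h groups pooled it had log2 0.785 (adjusted p = 0.48). The second Acaa2 probe set had log2 0.61 at 48 h on 24 arrays (adjusted p = 0.12).

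Ehhadh, the peroxisomal enzyme, had the largest log2 differences among the members after 3 mg/kg at 24 and 48 h. Its arrays read 11.58, 11.35 and 11.60 at 48 h, against 9.51, 7.49 and 10.94 at 0 h. The 48 h arrays agreed closely and the 0 h arrays did not, and the difference was log2 2.20 ± 0.73 (4.59-fold, adjusted p = 0.057). At 24 h it read 11.25, 10.95 and 11.15 (log2 1.80, adjusted p = 0.18), and at 4 h 10.64, 10.49 and 10.53 (log2 1.24, adjusted p = 0.42). On 22 arrays these were log2 0.89 at 24 h and 0.33 at 4 h (adjusted p = 0.2 and 0.77). On 22 arrays Ehhadh had log2 1.29 ± 0.31 at 48 h (adjusted p = 0.035). It did not pass with the compressed 0 h array alone left out. At 48 h after 3 mg/kg 0 of 7 members passed limma's test on 24 arrays, beside 9.34% of all probe sets, and 2 of 7 on 22 arrays, beside 4.42%. At 24 h none of the 7 members passed, where 0% of all probe sets did. At either time 3 members had an unadjusted p under 0.05, as did 20.0% of all probe sets at 24 h and 32.0% at 48 h.

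After 18 mg/kg the same 3 enzymes read low in the compressed 4 h array. Ehhadh read 7.01, 10.41 and 11.27 at 4 h, against 11.14, 10.72 and 11.37 at 0 h (log2 -1.51 ± 0.73, adjusted p = 0.44, or log2 -0.235 and 0.99 on 22 arrays). Acadm read 9.60, 12.45 and 12.71 at 4 h, against 12.55, 12.38 and 12.52 at 0 h, and Acaa2 9.93, 11.91 and 12.43, against 12.41, 12.23 and 12.44. The log2 differences of -0.90 and -0.94 (adjusted p = 0.45 for both) became 0.10 and -0.19 on 22 arrays. The second Acaa2 probe set went the other way at 4 h, with 8.46 against 7.89 at 0 h (log2 0.57, adjusted p = 0.44). At 24 and 48 h after 18 mg/kg all members had adjusted p = 1, and the differences of these 3 enzymes, by their brightest probe sets, lay between log2 -0.02 and 0.30. The second Acaa2 probe set had log2 0.89 at 24 h, with its arrays all above those of 0 h, and -0.12 at 48 h, without passing. None of the 7 members passed there, beside 0% of all probe sets at 24 h and 0.0966% at 48 h, and 1 (Cpt1a) and 0 had an unadjusted p under 0.05, beside 2.43% and 1.67% of all probe sets.

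**Figure D3:**
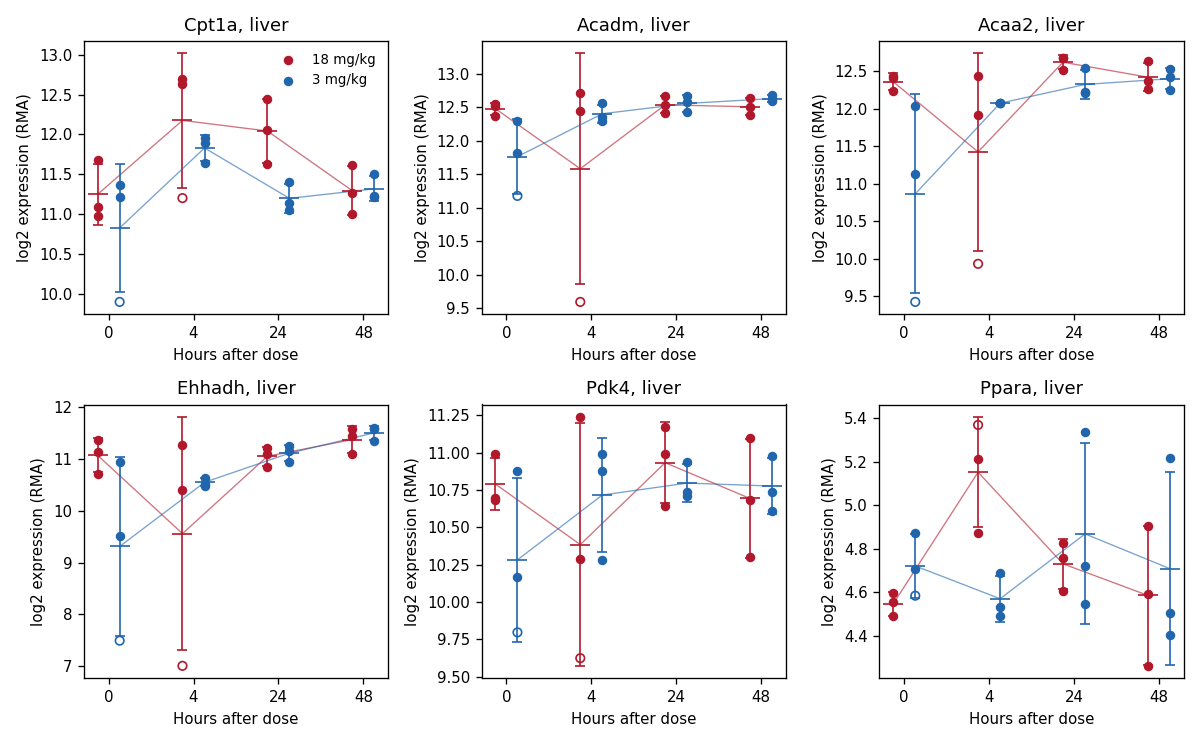
Log2 expression in liver by hours after dose, for 6 members in panels of their own, with 18 mg/kg in red and 3 mg/kg in blue; points are arrays, open circles the 2 compressed arrays, bars the mean ± SD (n = 3), and the vertical scale differs between panels. Acadm, Acaa2 and Ehhadh lie low in the open circles, down to 9.60, 9.42 and 7.01, and Cpt1a is highest at 4 h after 18 mg/kg, at 12.70.

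Pdk4 did not pass in any comparison with 0 h. After 3 mg/kg it read 10.99, 10.88 and 10.28 at 4 h, against 10.17, 9.80 and 10.88 at 0 h (log2 0.43 ± 0.33, adjusted p = 0.51, or log2 0.19 and 0.88 on 22 arrays). After 18 mg/kg it read 9.62, 10.29 and 11.24 at 4 h, against 10.70, 10.99 and 10.68 at 0 h (log2 -0.41 ± 0.33, adjusted p = 0.58), and log2 -0.03 on 22 arrays. Its group means spanned 0.65, from 10.28 to 10.93, and none of the 7 gaps between neighbouring groups exceeded the larger SD. The second Pdk4 probe set, at 6.82 to 7.80 over the 24 arrays, did not pass in any comparison with 0 h either.

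Over the 7 members, the median log2 difference from 0 h was 0.64, 0.52 and 0.50 at 4, 24 and 48 h after 3 mg/kg, where the median of all probe sets was -0.08, -0.09 and -0.16. After 18 mg/kg it was -0.90, 0.14 and 0.05, where that of all probe sets was 0.08, 0.003 and 0.005. On 22 arrays the members' median was 0.33, 0.27 and 0.25 after 3 mg/kg, beside -0.002, -0.002 and -0.06 for all probe sets, and -0.03 at 4 h after 18 mg/kg, beside -0.003. The 3 comparisons of an arm share its 0 h arrays, the compressed one included at 3 mg/kg.

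**Figure D4:**
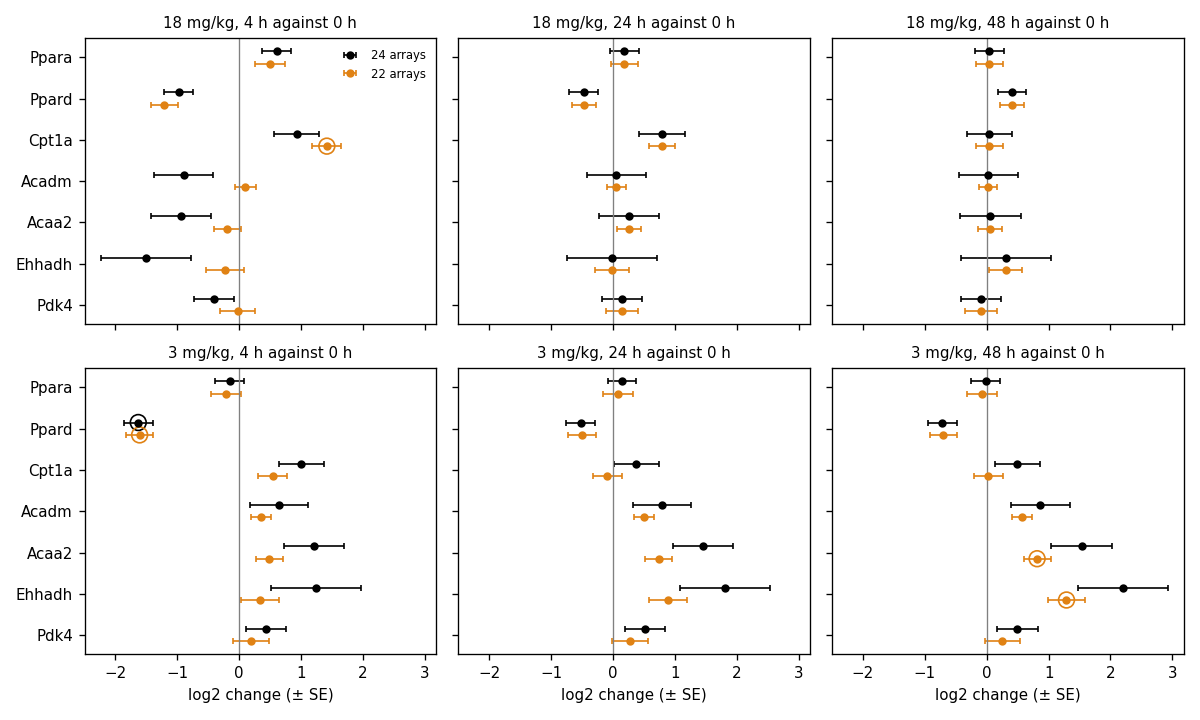
Log2 change from 0 h with its SE for the 7 members in the 6 liver comparisons, 18 mg/kg above and 3 mg/kg below, on all 24 arrays (black) and on the 22 arrays without the compressed ones (orange); a ring marks adjusted p under 0.05. Ppard at 4 h after 3 mg/kg is ringed in both colours (-1.63 and -1.61), and Cpt1a at 4 h after 18 mg/kg (1.42), Acaa2 (0.81) and Ehhadh (1.29) at 48 h after 3 mg/kg in orange alone.

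Around the members, 76 further genes of the pathway were listed, in 7 groups, and 71 were measured. The other 5 were not analysed here. Calls were made at 48 h after 3 mg/kg alone, with 6 genes higher and 1 lower. That is 9.86% of 71, where 9.34% of all probe sets passed. In the other 5 comparisons 0 of 71 passed limma's test. At an unadjusted p under 0.05 there were 7, 21 and 29 genes at 4, 24 and 48 h after 3 mg/kg and 16, 6 and 2 after 18 mg/kg. The share of all probe sets with such a p was 14.2%, 20.0% and 32.0% after 3 mg/kg and 11.4%, 2.43% and 1.67% after 18 mg/kg, where 7, 21 and 29 of 71 are 9.86%, 29.6% and 40.8% and 16, 6 and 2 are 22.5%, 8.45% and 2.82%.

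The genes that passed at 48 h after 3 mg/kg came from 5 of the 7 groups. Of 15 mitochondrial genes 1 rose, the enoyl-CoA isomerase Eci1, with 10.71, 10.41 and 11.35 at 48 h, against 8.98, 7.22 and 9.88 at 0 h (log2 2.13 ± 0.55, adjusted p = 0.028). Of 11 peroxisomal genes 2 rose, the bifunctional protein Hsd17b4 (log2 1.62, adjusted p = 0.044) and Crot, which couples shortened acyl chains to carnitine for export (log2 2.02, adjusted p = 0.027). Of 4 genes of ketone metabolism 1 rose, the monocarboxylate transporter Slc16a1 (log2 2.24, adjusted p = 0.044). Bdh1, the ketone body dehydrogenase, had 11.66 on average at 48 h and 10.47 at 0 h (log2 1.19, adjusted p = 0.096). Of 17 other PPAR targets 2 rose, the peroxisomal thioesterase Acot4 (log2 1.65, adjusted p = 0.04) and the lipid droplet protein Cidea, with 8.72, 8.38 and 8.71 at 48 h, against 5.66, 6.19 and 7.04 at 0 h (log2 2.31 ± 0.43, adjusted p = 0.023). Of 12 partners and regulators 1 fell, the coactivator Ppargc1b, with 5.70, 6.01 and 6.13 at 48 h, against 7.50, 6.97 and 6.49 at 0 h (log2 -1.04, adjusted p = 0.048). None of 7 genes of uptake and activation and none of 5 other genes of pyruvate dehydrogenase control passed.

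The compressed 0 h array held the lowest value of its group for Eci1, Hsd17b4, Crot, Slc16a1 and Acot4. On 22 arrays 5 genes rose and 0 fell, namely Hadh, Eci1, Cidea, Pdk1 and Pdp1, so that Eci1 and Cidea passed both ways. The median over the 71 genes was log2 0.53 on 24 arrays and 0.23 on 22. The count of 7, summed over the 6 comparisons, ran from 0 to 46 as single arrays were left out of the 24. It was 0 without replicate 2 of the 3 mg/kg 0 h group or replicate 1 or 3 of the 48 h group. It was 46 without replicate 3 of the 0 h group. The share of all probe sets that passed the 6 comparisons in that last fit is not given here, so the 46 stands without its background. By another test, the F test over time after 3 mg/kg, 2939 of 31042 probe sets passed in that fit, against 8 on 24 arrays. Markers of other cell types were called at 48 h after 3 mg/kg on 24 arrays, where 9.34% of all probe sets passed. Of 4 Kupffer cell and macrophage markers 2 rose, with a list mean of 10.1 to 10.2 at 48 h and 8.64 to 9.82 at 0 h. The 8.64 was the compressed array, and the other 0 h arrays had 9.64 and 9.82. So did 1 of 4 endothelial, 1 of 4 stellate and 1 of 5 microglial markers rise, where Csf1r is in both the microglial and the Kupffer cell list. The part of these markers in the pathway counts was not tested.

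At 4 h after 18 mg/kg all 15 mitochondrial genes and all 4 of ketone metabolism had a difference below 0 (medians log2 -0.96 and -0.86) and none passed. Over all 71 genes the median of this comparison was log2 -0.33 on 24 arrays and 0.10 on 22. Among genes induced by PPAR alpha in rodents, the fatty acid hydroxylase Cyp4a1 had 12.13 at 4 h and 11.48 at 0 h (log2 0.65, adjusted p = 0.44), the hormone Fgf21 had 7.51 and 6.79 (log2 0.72, adjusted p = 0.58), and the secreted lipase inhibitor Angptl4 had 10.88 and 10.49 (log2 0.40, adjusted p = 0.62). These 3 were picked as examples after their values were seen, and their 4 h means include the compressed array. Of the 17 genes measured in the list of other PPAR targets, 12 had a difference above 0 in this comparison on 24 arrays. The median of that list was log2 0.245, where that of all probe sets was 0.077.

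The doses were set against each other at each time. In limma's test none of the 7 members passed at any of them, beside 0% of all probe sets called at 0 h, 0% at 4 h, 0.087% at 24 h and 0.029% at 48 h. At an unadjusted p under 0.05 there were 3, 1, 2 and 0 members, beside 21.4%, 9.79%, 3.01% and 2.52% of all probe sets. At 0 h the arrays of the 2 arms did not overlap for Ppard, Acadm and Acaa2, and none of them passed. How many of all probe sets lay apart in this way is not given here. Ppard in the 18 mg/kg arm at 0 h differed by log2 -0.78 ± 0.23 (adjusted p = 0.11), with every array below those of the 3 mg/kg arm. Acadm and Acaa2 differed by log2 0.72 and 1.498 (adjusted p = 0.37 and 0.12), with every array above. On 22 arrays these were log2 -0.75 for Ppard, 0.425 for Acadm and 0.78 for Acaa2 (adjusted p = 0.17, 0.24 and 0.16). At 4 h Ppard differed by log2 -0.12 ± 0.23 (adjusted p = 0.84), or log2 -0.35 (0.79) on 22 arrays. At 24 h Ppard after 18 against 3 mg/kg differed by log2 -0.73 and Cpt1a by log2 0.84, without overlap and without passing (adjusted p = 1 for both). The second Acaa2 probe set differed at 24 h by log2 1.08, without overlap (adjusted p = 0.28), while the first had log2 0.30, with overlap. A moderated F test of whether the changes from 0 h differed between doses gave 0 of 7 members, beside 0.00966% of all probe sets (adjusted p = 0.48 for Ppard, and at least that for the other members; 0.25 to 0.93 over the members on 22 arrays).

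The members fell into separate patterns over the liver arrays, described by Pearson's r over 24 arrays that share groups and processing, with no test. Cpt1a and Ppard ran opposite to each other (r = -0.769, and -0.794 on 22 arrays). Acaa2 and Ehhadh ran together (r = 0.961, and 0.831 on 22 arrays), as did Acadm and Ehhadh (0.924 and 0.774) and Acadm and Acaa2 (0.871 and 0.804). Cpt1a had r of 0.488 with Acaa2 on 24 arrays and 0.054 on 22. Among 7079 other genes of at least median level, those most like Ppard were Stard5, a sterol-binding protein (r = 0.844), Tubb2a, a beta-tubulin (0.765), and Cry1, a repressor of the circadian clock (0.751), and on 22 arrays their r was 0.862, 0.909 and 0.76. Those most like Cpt1a were Rab30 (0.873), Mfsd2a, a lysophospholipid transporter (0.868), and Tcp11l2 (0.852), with 0.874, 0.823 and 0.804 on 22 arrays. For Acadm they were Glo1, Ahcy and Ostc (0.989, 0.988 and 0.987, but 0.857 to 0.876 on 22 arrays), for Acaa2 Mrpl57, Idh3g and Mrpl3 (0.971 to 0.973), and for Ehhadh Suclg1, Rpl23a and Sco1 (0.981 to 0.982). Pdk4 was most like Fmo5, Tle1 and Tbpl1 (0.862, 0.848 and 0.847), with 0.643 to 0.682 on 22 arrays. No gene ran close to the dim Ppara, whose highest r was 0.578, with Epha2.

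In cortex Ppard was not called at any time. At 4 h after 18 mg/kg it read 8.34, 8.20 and 8.22, against 7.83, 7.65 and 8.16 at 0 h, and the 4 h arrays lay above the 0 h arrays. The difference of log2 0.37 ± 0.16 did not pass (adjusted p = 0.45). It was log2 0.15 (adjusted p = 1) with the 3' minus 5' signal of actin, a measure of RNA degradation, as a covariate; that signal was 3.33 to 4.03 in the 4 h arrays and 1.86 to 3.6 in the 0 h arrays. After 3 mg/kg Ppard read 7.70, 7.49 and 7.83 at 4 h, against 8.09, 8.12 and 7.58 at 0 h (log2 -0.26 ± 0.16, adjusted p = 0.46). At 24 and 48 h the differences were log2 -0.33 and -0.30 after 3 mg/kg and -0.06 and 0.07 after 18 mg/kg. Ppard was thus called in 0 of 6 cortex comparisons, in which 0.0741% of all probe sets passed at 24 h after 3 mg/kg and 0% in each of the other 5. The mean of the hepatocyte transcripts was uneven over the cortex arrays. It was 11.2 and 11.6 in replicates 2 and 3 at 48 h after 18 mg/kg. It was 10.7 at 4 h in replicate 2 of 18 mg/kg and replicate 1 of 3 mg/kg, against 6.62 to 8.44 at 0 h. Its part in the cortex values of Ppard and in the comparison of tissues was not tested.

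The tissues were compared in 1 fit of all 48 arrays. At 0 h Ppard averaged 7.90 ± 0.25 in cortex and 9.16 ± 0.51 in liver (SD, n = 6 each), a difference of log2 -1.26 ± 0.14 (SE; adjusted p = 2.6e-10), in a comparison where 77.4% of all probe sets passed. Whether its time course differed between tissues was tested after the values had been seen. The F test passed in both arms, with adjusted p = 0.0071 after 18 mg/kg and 0.041 after 3 mg/kg, beside 0.129% and 0.293% of all probe sets called. The change at 4 h was lower in liver than in cortex by log2 -1.35 ± 0.28 after 18 mg/kg (adjusted p = 0.082) and by -1.37 ± 0.28 after 3 mg/kg (adjusted p = 0.057). Both F tests missed the threshold after quantile normalisation of all arrays (adjusted p = 0.57 and 0.091). With single arrays left out the 18 mg/kg test passed in 24 of 24 fits, and the 3 mg/kg test in 3 of 24 (adjusted p from 0.0014 to 0.13).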

How the data were processed

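The authors deposited log2 expression values; per the submitters' processing notes they come from RMA in Partek, with no version or settings given. RMA corrects background and is usually run with a step that makes array distributions alike. The deposited arrays had means of 6.737 to 6.741 but SDs of 1.383 to 2.165, so their means were alike and their distributions were not. With such means, a shift shared by most transcripts is reduced. Whether cortex and liver were normalised together is not given in the sources used here. These values were not rescaled. Of 31099 probe sets, 57 controls were left out and 31042 tested, and the platform annotation gave 20826 a single gene symbol, 436 several and 9780 none. Group means (8 per tissue) were fitted to its 24 arrays in limma 3.58.1 (R 4.3.3), two-sided, with Benjamini-Hochberg adjustment over all probe sets and a threshold of 0.05. Fits were tested on simulated data. Dim probe sets were kept, and the number of arrays limits the precision.

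Pathway genes are named where they pass, up to 4 per list and comparison, and Bdh1, Cyp4a1, Fgf21 and Angptl4 are named without passing. Likeness takes the 3 genes of highest r for each member. The members, the lists and the tests were chosen with earlier results of these data known.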

Additional observations from a re-analysis of the deposited data

Results flagged for a closer look

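The time course of Ppard differed between liver and cortex in each dose arm on the values as deposited, by a test of the difference itself that was added after the values had been seen. The adjusted p of the F test was 0.0071 after 18 mg/kg and 0.041 after 3 mg/kg. Neither passed after quantile normalisation of all arrays (adjusted p = 0.57 and 0.091), and with 1 array left out the 18 mg/kg test passed in 24 of 24 fits and the 3 mg/kg test in 3 of 24. In liver the 4 h arrays read 7.40 to 8.26 and the 0 h arrays 8.59 to 9.92. In cortex the 4 h arrays read 7.49 to 8.34 and the 0 h arrays 7.58 to 8.16. The tissues thus overlapped at 4 h and stood apart at 0 h.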

How the results depend on the processing

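The fall of Ppard at 4 h after 3 mg/kg kept its direction in all 16 alternative settings of its probe set (log2 -1.98 to -1.24) and passed in 11. At 4 h after 18 mg/kg it ran from log2 -1.36 to -0.65 and passed in 2 of 16. Same-numbered arrays did not run together throughout (18 pairs, r from -0.244 to 0.421, 7 over 0.1). After 3 mg/kg r was 0.181, 0.421 and 0.214 at 24 h and 0.003, 0.214 and 0.27 at 48 h. The labels do not say whether a number marks a shared animal. With the replicate block 1 member passed at 48 h after 3 mg/kg (Acaa2, adjusted p = 0.049) and 0 in the F test over time of either arm, and no other count of members moved. Counts of members called changed as follows. The share of all probe sets that passed stands beside them for array weights, and above for the fits without the compressed arrays. For the other settings, and for pathway calls with brighter probe sets or 1 array left out, it is not given here. Those counts can therefore not be set against their background. At 4 h after 3 mg/kg the count of 1 became 0 with only the arrays compared, with pooled 0 h groups and with the second probe set, 6 with array weights (32.2% of all probe sets passed), and 0 to 2 with 1 array left out. At 24 h after 3 mg/kg 0 became 5 with array weights (34.7%) and 0 to 2 with 1 array left out. At 48 h after 3 mg/kg 0 became 1 after quantile normalisation, 3 with brighter probe sets only, 4 with array weights (42.7%), 2 without the compressed arrays, 1 with the second probe set, and 0 to 3 with 1 array left out. At 4 h after 18 mg/kg 0 became 1 after quantile normalisation (Cpt1a, adjusted p = 0.041), without the compressed arrays and with pooled 0 h groups, and 2 with array weights (1.75%). For 18 against 3 mg/kg, array weights gave 4, 1 and 2 at 0, 4 and 24 h (38.4%, 2.77% and 0.419% of all probe sets) and 4 in the F test between doses (30.2%), and leaving out 1 array gave 0 to 3 at 0 h, the 3 without replicate 3 of the 3 mg/kg 0 h group. The F test over time after 3 mg/kg gave 0 after quantile normalisation and with the second probe set, 5 with array weights (45.4%) and 0 to 3 with 1 array left out. After 18 mg/kg it gave 0 with trend and robust moderation and with the second probe set, 2 with array weights (2.09%) and without the compressed arrays, and 0 to 1 with 1 array left out. The 7 pathway calls, summed over 71 genes in each of 6 comparisons, became 11 with brighter probe sets and 0 to 46 with 1 array left out. With array weights they became 95, where 32.2%, 34.7% and 42.7% of all probe sets passed at 4, 24 and 48 h after 3 mg/kg. After 18 mg/kg 1.75%, 0.316% and 0.667% passed with these weights. Ppard was called in 4 of 6 cortex comparisons with array weights, where 12.3% to 26.2% of all probe sets passed. Its tissue F test gave 0.091 (3 mg/kg) and 0.57 (18 mg/kg) after quantile normalisation, and 0.0014 to 0.13 and 0.0012 to 0.033 with 1 array left out. The second Cpt1a probe set reversed the sign at 48 h after 3 mg/kg (log2 -0.90). Array weights stopped before they converged and gave the compressed arrays 0.116 and 0.0545; the cause was not tested. Of the single-gene results under alternatives, 624 kept their side of the threshold, and those without a call stayed within the spread. A change of sign within the spread counted among the 624 where neither fit passed. For Cpt1a at 24 h after 3 mg/kg, log2 0.373 became -0.093 without the compressed arrays. Of the other results, 32 newly passed, 6 no longer passed, 45 moved beyond the spread without a call and 1 reversed with a call.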
